A study of Mus musculus with 4 samples.

Results

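The 10 genes of iron storage and handling described here were followed across 4 libraries of mouse bone-marrow-derived macrophages (BMDM), cells grown in culture from bone marrow into macrophages. The genes were chosen by name, with no threshold on their values, from the 55536 Ensembl genes of the deposited tables: the ferritin subunits Fth1 and Ftl1, the ferritin carrier Ncoa4, the transferrin receptor Tfrc, the metal transporters Slc11a2 and Slc11a1, haem oxygenase Hmox1, the iron exporter Slc40a1, and the iron regulatory proteins Ireb2 and Aco1. All 10 of 10 were present and reached at least 1 TPM (a transcript abundance corrected for length and for the library total) in every library, as did 10407 genes in all. RNA selected by polyA was measured in 1 group of 4 biological replicates from C57BL/6J mice, all listed under 1 donor record, with age and sex not collected. According to the sample descriptions, the cells of all 4 libraries received Lipid A at 100 ng/mL for 12 h; Lipid A is the portion of bacterial lipopolysaccharide that TLR4 senses. After a washout of 12 h they were given 100 ng/mL again for 60 min. The source names and characteristics instead name lipoprotein A and mention no washout, so the agent and the schedule are not settled by the labels. No untreated or singly treated cells were analysed here, so a level below is a level in these cells and not a response to either exposure.

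Ferritin is a hollow shell of heavy and light subunits that stores iron as a mineral core, and macrophages hold much of the iron that the body recycles from old red cells. Iron enters through the transferrin receptor or by breakdown of haem, crosses membranes through divalent metal transporters, and leaves through ferroportin, the product of Slc40a1. When iron is scarce, iron regulatory proteins bind stem-loops called iron-responsive elements (IREs) in several of these messages. Binding in a 5' UTR blocks translation and binding in the 3' UTR of Tfrc slows decay, so RNA levels of ferritin and ferroportin do not measure their proteins.

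The IREs are shown because they are the sequence that ties the storage, uptake and export genes together. GENCODE M21 transcripts, the annotation of the deposited tables, were searched on their own strand for CNNNNNCAGTGN with 5 base pairs between the bases after the first C and those after the loop. Capitals mark the 6-base loop. Each line is a window of 30 bases, 5′ to 3′, and the coordinates are those of mm10.
Fth1 (5' UTR of Fth1-201, chr19:9982732-9982761, + strand): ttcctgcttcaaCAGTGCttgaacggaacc
Ftl1 (5' UTR of Ftl1-201, chr7:45459778-45459807, − strand): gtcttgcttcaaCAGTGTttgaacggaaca
Slc40a1 (5' UTR of Slc40a1-201, chr1:45925464-45925493, − strand): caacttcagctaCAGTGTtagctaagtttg
Tfrc element 1 (3' UTR of Tfrc-201, chr16:32631219-32631248, + strand): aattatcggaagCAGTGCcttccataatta
Tfrc element 2 (3' UTR of Tfrc-201, chr16:32631598-32631627, + strand): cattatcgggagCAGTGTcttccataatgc
Tfrc element 3 (3' UTR of Tfrc-201, chr16:32631663-32631692, + strand): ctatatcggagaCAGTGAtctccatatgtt
Tfrc element 4 (3' UTR of Tfrc-201, chr16:32631710-32631739, + strand): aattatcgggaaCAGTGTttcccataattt
Slc11a2 (3' UTR of Slc11a2-205, chr15:100395152-100395181, − strand): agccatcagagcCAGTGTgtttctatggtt

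The heavy and light ferritin windows shared 26 of 30 bases, while the Slc40a1 window shared 13 with each of them. The windows of Fth1, Ftl1 and Slc40a1 lay in the 5' UTR, where 0.148% of 20916 protein-coding genes had such a match. The 4 matches of Tfrc lay in the 3' UTR, where 0.594% of 21707 genes had one. Slc11a2-205 matched only when 1 unpaired base was allowed on the 3' side of the stem, a rule added after the first search. In a 3' UTR 1.07% of genes had a match that needed the extra base, with matches under the first rule not counted. The other 5 genes (Slc11a1, Hmox1, Ireb2, Aco1 and Ncoa4) had no match to these letters in any annotated transcript. A match is a description of letters and not a measured binding site.

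**Figure D1:**
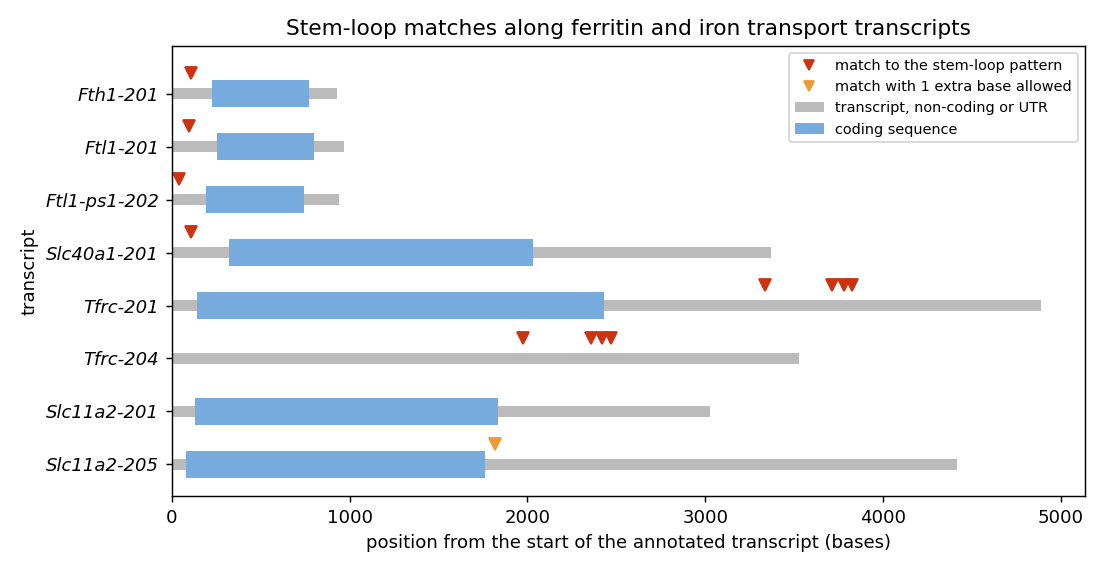
Positions of the stem-loop matches along annotated transcripts, in bases from the transcript start. Grey bars are transcripts, blue boxes coding sequences and triangles matches; the matches of Fth1-201, Ftl1-201, Ftl1-ps1-202 and Slc40a1-201 lie before the coding sequence, and the 4 matches of Tfrc-201 lie after it and recur in the non-coding Tfrc-204.

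Nearly all the RNA of 4 of these genes came from transcripts that contain a match. Transcripts with a match made up 99.4% ± 0.123 of the TPM of Fth1, 99.9% ± 0.0233 of Ftl1, 97.9% ± 0.292 of Slc40a1 and 98.7% ± 0.797 of Tfrc (SD, n = 4). For Slc11a2 they made up 25.7% ± 1.99, and the gene's leading transcript had no match.

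Expected counts on genes ranged from 23167140 to 41453162 per library, and every pair of libraries differed by more than counting noise, so none was 1 library deposited again. Whether they came from separate cultures or animals is not stated, so p-values measure the spread between these libraries, which may be technical. Replicates 1 and 2 came from 6 read files and replicates 3 and 4 from 4 read files, per the deposited records. Mitochondrial RNA held 1.94% to 4.77% of TPM and ribosomal RNA 1.29% to 7.14%, the latter highest in replicate 1. All 10 of 10 macrophage markers were detected in every library, with a summed level of 17144 to 20134 TPM. Of 5 markers of iron-recycling red pulp macrophages 4 (Spic, Vcam1, Siglec1 and Adgre4) were detected, with a sum of 173 to 270.1 TPM, and Cd163 was not. Of 9 erythroid markers 0 reached 1 TPM in every library, 4 (among them Hba-a2 and Hbb-bt) were listed at 0, and the sum of the 9 was 0.090 to 2.44 TPM. Neutrophil markers summed to 133, 13.1, 106 and 12.7 TPM in replicates 1 to 4, with S100a8 and S100a9 the detected 2 of 10 and Ly6g and Retnlg at 0; their part in the differences between libraries was not tested. Markers of T cells and stroma were detected in 0 of 7 and 0 of 6, and of B cells in 1 of 6 (Cd79b). In bulk RNA, fewer cells of a type and less RNA per cell cannot be told apart.

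**Figure D2:**
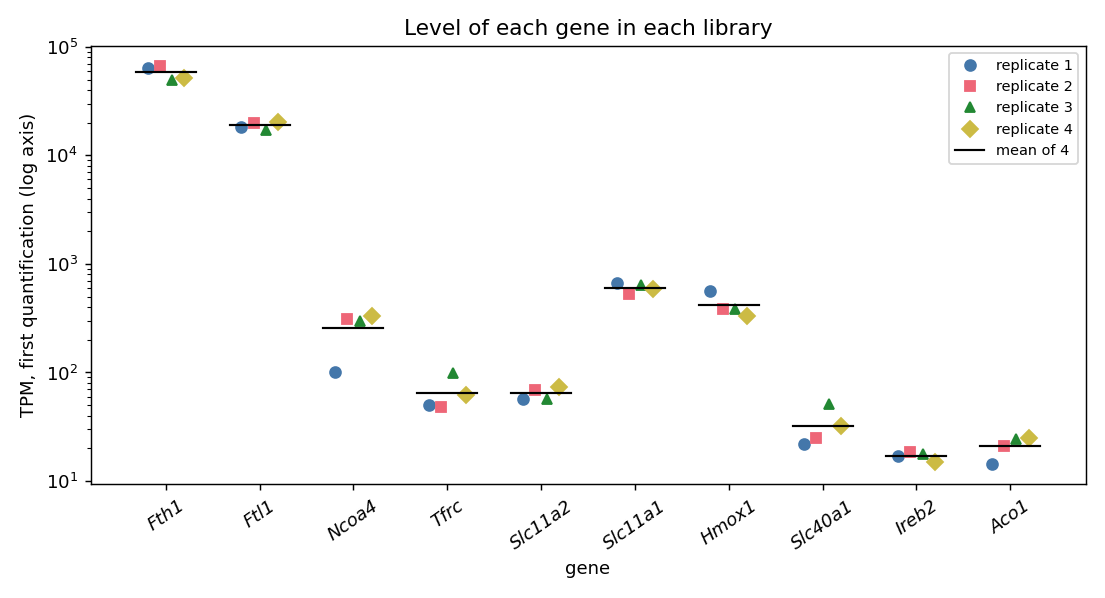
TPM of the 10 genes in each library (log axis), ordered by role, with the mean of 4 as a bar. Fth1 and Ftl1 stand above the other 8 genes in every library, and Ncoa4 is the gene with 1 library, replicate 1, well below the other 3.

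The 10 genes spanned mean levels from 58147 TPM down to 17.1 TPM. Ordered by mean TPM they ran Fth1, Ftl1, Slc11a1, Hmox1, Ncoa4, Tfrc, Slc11a2, Slc40a1, Aco1 and Ireb2. The ranges of the libraries did not overlap between Fth1 and Ftl1, Ftl1 and Slc11a1, Hmox1 and Ncoa4, Ncoa4 and Tfrc, or Slc11a2 and Slc40a1. Tfrc and Slc11a2 could not be ordered, since Tfrc was the higher in 1 of 4 libraries. Slc11a1 and Hmox1 overlapped in range but kept their order in 4 of 4 libraries, as did Slc40a1 and Aco1, and Aco1 exceeded Ireb2 in 3 of 4.

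How far each gene varied between libraries was read from 1 fit of all genes, in which each gene's deviance between libraries was set against the dispersion usual for its abundance (edgeR, adjusted p up to 0.05 over all genes). The fit called 305 of 11679 genes (2.61%) variable and 0 of the 10 iron genes. At an unadjusted p under 0.05 there were 910 genes (7.79%) and 2 of the 10, Ncoa4 and Slc40a1. With the dispersion trend and library scaling (size factors) of DESeq2 in place of those of edgeR, 347 genes and 1 of the 10, Ncoa4, were called. With the size factors alone 314 genes and 0 of the 10 were called. Without replicate 1 edgeR called 135 genes, and without each of the other libraries 204 to 219, with 0 of the 10 in every case. Normalised counts differed at least 2-fold between the highest and lowest library in 2 of the 10 (Ncoa4 and Slc40a1), beside 17.7% of all genes tested. The median ratio of highest to lowest was 1.54 for the 10 and 1.43 for all genes tested. The 4 libraries are called biological replicates but share 1 donor record, so these p-values measure only the spread between these samples.

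**Figure D3:**
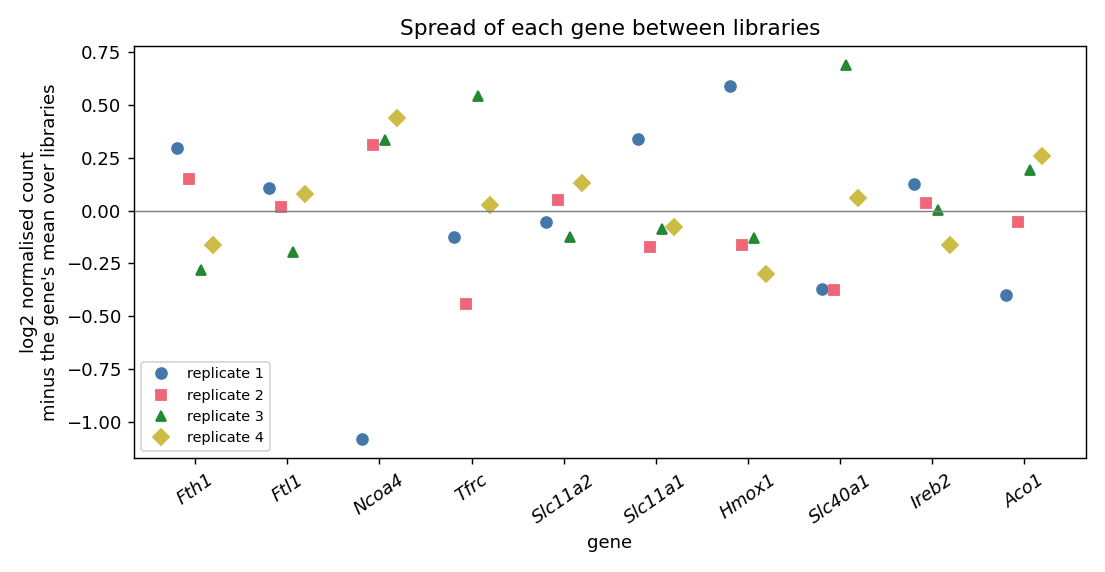
Log2 normalised count of each gene in each library minus the gene's mean over the 4 libraries. Replicate 1 lies lowest for Ncoa4 and Aco1 and highest for Fth1, Ftl1, Slc11a1, Hmox1 and Ireb2. Replicate 3 lies highest for Slc40a1 and Tfrc.

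The storage genes were the most abundant of the set. Fth1 (ENSMUSG00000024661.7, chr19:9980598-9985098, + strand), the heavy subunit that oxidises iron for storage, had 63979.6, 66880.3, 49527 and 52202 TPM in replicates 1 to 4. It held rank 1 among all genes in replicates 2, 3 and 4 and rank 2 in replicate 1. Both libraries from 6 read files were higher than both from 4, and Fth1 took 2.88%, 3.00%, 2.30% and 2.39% of all expected counts. Among nuclear protein-coding genes alone its share of TPM was 7.30%, 7.40%, 5.61% and 5.89%, with the libraries in the same order as by TPM. A second quantification of the same reads, described below, did not separate the libraries by read files in TPM. There Fth1 had 44158, 40944, 43107 and 42833 TPM, lowest in replicate 2. From counts, the log2 difference of Fth1, 4 against 6 read files, was −0.44 in the first and −0.45 in the second. Its adjusted p for variability was 1.00 in edgeR.

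Ftl1 (ENSMUSG00000050708.16, chr7:45457944-45459884, − strand), the light subunit that helps the iron core form, had 18362, 19989, 17169.8 and 20127 TPM. The highest library exceeded the lowest by 1.17-fold in TPM and 1.23-fold in normalised counts, and Ftl1 held rank 4 or 5 among all genes in every library. The TPM of Fth1 was 3.48, 3.35, 2.88 and 2.59 times that of Ftl1 in replicates 1 to 4. The mean log2 ratio was 1.61 ± 0.20 (SD, n = 4), positive in 4 of 4 libraries, with p = 0.13 by the exact two-sided sign-flip test, the smallest value 4 libraries allow.

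Both ferritin genes have processed copies elsewhere in the genome, and reads may be shared among them. Of 14 other loci named Fth or Ftl, 9 had no count in either quantification and 3 reached a mean of 1 TPM in at least one, namely Ftl1-ps1, Fth-ps2 and Ftl1-ps2. The transcript Ftl1-ps1-202, of the gene at chr13:74399694-74407346 (+ strand, annotated as protein coding), was 99.6% identical to Ftl1-201 over 910 aligned bases, with 4 mismatches, and its stem-loop window was identical to that of Ftl1 in 30 of 30 bases. By sequence and in either orientation, 22 genes matched Ftl1-201 over at least 200 bases at 80% identity or more, 18 of them annotated as pseudogenes, and 3 matched Fth1-201. In the first quantification those 3 summed to at most 0.015% of the TPM of Fth1 in any library, and the 22 to between 1.78% and 2.43% of Ftl1. In the second the shares were at most 0.024% and between 0.38% and 0.66%. Whole genes were summed, so the shares for Ftl1 are not those of copies alone. They include Cars, which matched over 216 bases in the opposite orientation. In replicates 1 to 4 Cars had 41.8, 51.7, 39.9 and 47.6 of 446, 483, 308 and 357 TPM in the first quantification. In the second it had 27.4, 35.8, 37.8 and 39.7 of 69.0, 79.9, 60.4 and 63.9 TPM.

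The deposit holds a second quantification of the same reads, and Ftl1-ps1 differed between them far more than its parent. The first quantification gave it 346, 363, 207 and 235 TPM, and the second gave 23.8, 25.0, 10.7 and 9.04. On the log2(TPM + 0.1) scale the difference, second minus first, was −4.17 ± 0.15 (SE), lower in 4 of 4 libraries. After each library was centred on its median difference it was −3.87 ± 0.25, with a limma adjusted p of 0.000971 without a fold threshold. Ftl1 itself moved from a mean of 18912 to 14105 TPM (−0.43 ± 0.088, or −0.14 ± 0.011 centred). The counts assigned to Ftl1 and Fth1 were instead higher in the second in every library. In replicate 1 they went from 232688 to 284697 for Ftl1 and from 765914 to 931078 for Fth1. The rise was smaller in replicates 3 and 4 than in replicates 1 and 2. Fth1 counts went from 694282 to 838576 in replicate 2, 953462 to 976985 in replicate 3 and 836586 to 856952 in replicate 4. Those of Ftl1-ps1 were lower in every library, from 4204 to 506 in replicate 1. The copy held 1.17% to 1.89% of the TPM of Ftl1 in the first quantification and 0.054% to 0.21% in the second, so its own level was not settled by these files. Gm10252, which overlaps Ftl1 on the opposite strand, had 30.7 TPM in the first and 3.52 in the second; whether counting used strand is not given in the sources used here, so its reads and those of Ftl1 cannot be told apart.

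**Figure D4:**
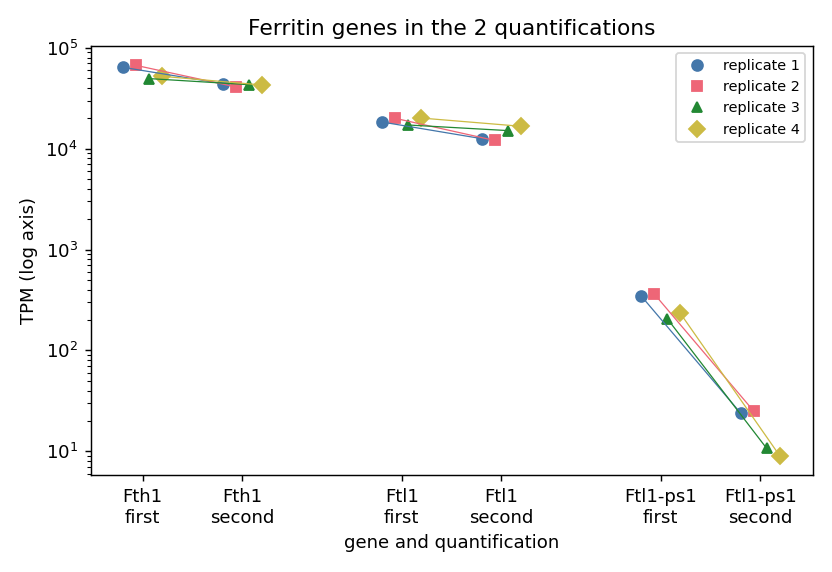
TPM (log axis) of Fth1, Ftl1 and the near-identical copy Ftl1-ps1 in the first and second quantification, with lines joining the values of 1 library. The TPM of Fth1 and Ftl1 is lower in the second in every library, by 1.15 to 1.63 and 1.14 to 1.66 times, although their counts are higher. Ftl1-ps1 falls from 207 to 363 TPM to between 9.04 and 25.0 TPM.

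Across the 10 genes the 2 quantifications differed less. Of 12299 genes 1658 (13.5%) were called at an adjusted p up to 0.05 and at least 1.5-fold by limma, and 0 of the 10. With no fold threshold 39.5% of genes and 7 of the 10 were called, all 7 lower in the second. The median gene was lower in the second quantification, with a log2 difference of −0.41, −0.59, −0.037 and −0.13 in replicates 1 to 4. After centring on those medians, 33.9% of genes and 5 of the 10 were called with no fold threshold (Fth1, Ftl1, Tfrc, Slc11a1 and Hmox1), and the differences of the 10 lay between −0.17 for Slc11a1 and 0.19 for Slc11a2.

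Ncoa4 (ENSMUSG00000056234.15, chr14:32159865-32179855, + strand), the receptor that carries ferritin to the lysosome for breakdown, had 101, 312, 296 and 328 TPM. Replicate 1 stood apart from the other 3 libraries, which lay close together, and the highest library was 3.26 times replicate 1. Normalised counts (CPM on library totals adjusted by TMM, a scaling between libraries) were 169, 445, 452 and 485. The edgeR adjusted p for variability was 0.063, which missed the threshold. With the dispersion trend and size factors of DESeq2 it was 0.017, with the size factors alone 0.080, and without replicate 1 it was 1.00. Over all alternatives it ranged from 0.017 to 1.00. In the second quantification Ncoa4 had 80.8, 203, 283 and 299 TPM, again lowest in replicate 1.

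The low value of replicate 1 was not the same in all transcripts of Ncoa4, a description made after the values were seen. Of the annotated transcripts 5 begin between 32165589 and 32166121, among them the leading Ncoa4-201 and the 462-base Ncoa4-203, and their TPM summed to 80.8, 277, 249 and 279 in replicates 1 to 4. Another 4 begin upstream, between 32159865 and 32159981, and summed to 19.8, 35.2, 45.1 and 49.1. Both groups were lowest in replicate 1, and in the second quantification the sums were 68.1, 187, 255 and 267 for the downstream starts and 12.6, 16.1, 27.4 and 31.96 for the upstream ones. One upstream transcript, the 1101-base Ncoa4-208, had 7.87, 8.75, 8.24 and 10.2 TPM, with replicate 1 close to the other libraries. In the second quantification Ncoa4-208 had 11.9, 12.8, 17.5 and 24.3 TPM. The assignment of reads among these transcripts differed between quantifications: Ncoa4-202 held 8.45% to 12.4% of the gene in the first and 0.84% to 3.46% in the second.

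The uptake genes lay well below ferritin. Tfrc (ENSMUSG00000022797.16, chr16:32608920-32632794, + strand), which brings transferrin-bound iron into the cell, had 49.8, 48.5, 98.9 and 62.6 TPM. Replicate 3 was the highest and the other 3 libraries lay between 48.5 and 62.6. The edgeR adjusted p for variability was 0.80, and both libraries from 4 read files were above both from 6.

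In the first quantification the high value of replicate 3 came with a transcript that codes for no protein. The coding Tfrc-201 had 41.4, 34.5, 52.4 and 43.8 TPM, whereas Tfrc-204, a retained-intron transcript that includes the last exon with its 4 stem-loop matches, had 8.01, 13.0, 44.6 and 18.4 TPM. Tfrc-204 thus made up 16.1%, 26.8%, 45.1% and 29.5% of the gene. In the second quantification Tfrc-204 was at or near 0 in replicates 1, 2 and 4 (0%, 0.11% and 8.94e-06% of the gene) and at 27.3% in replicate 3. Tfrc-201 then had 32.4, 26.5, 63.4 and 51.2 TPM. In both quantifications replicate 3 had the highest share of Tfrc-204.

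Slc11a2 (ENSMUSG00000023030.16, chr15:100387898-100425072, − strand), the divalent metal transporter that moves iron out of endosomes, had 56.6, 68.8, 57.3 and 73.8 TPM, with no library apart. Slc11a2-201, which ends without a stem-loop match, made up 61.3%, 66.7%, 64.6% and 60.3% of the gene. The stem-loop form Slc11a2-205 made up 26.2%, 24.7%, 28.3% and 23.7%. In the second quantification the shares were 52.8% ± 8.24 for Slc11a2-201 and 21.5% ± 4.35 for Slc11a2-205 (SD, n = 4). The form without the match was thus the more abundant in 4 of 4 libraries of both.

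Slc11a1 (ENSMUSG00000026177.11, chr1:74375195-74386062, + strand), the related transporter of the phagosome membrane of macrophages, had 668, 531, 635 and 583 TPM. C57BL/6 mice are known to carry an allele of Slc11a1 that impairs the protein, which RNA levels do not show. Gene-level TPM of Slc11a1 was 11.8, 7.70, 11.1 and 7.88 times that of Slc11a2, a mean log2 ratio of 3.24 ± 0.32 (SD, n = 4; exact sign-flip p = 0.13). With counts not divided by length, the mean log2 ratio was 1.84. Much of that level came from a short non-coding form: Slc11a1-206, of 378 bases, held 42.7%, 41.1%, 50.2% and 46.5% of the gene's TPM, and the coding Slc11a1-201 had 317, 259.9, 265 and 265 TPM.

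**Figure D5:**
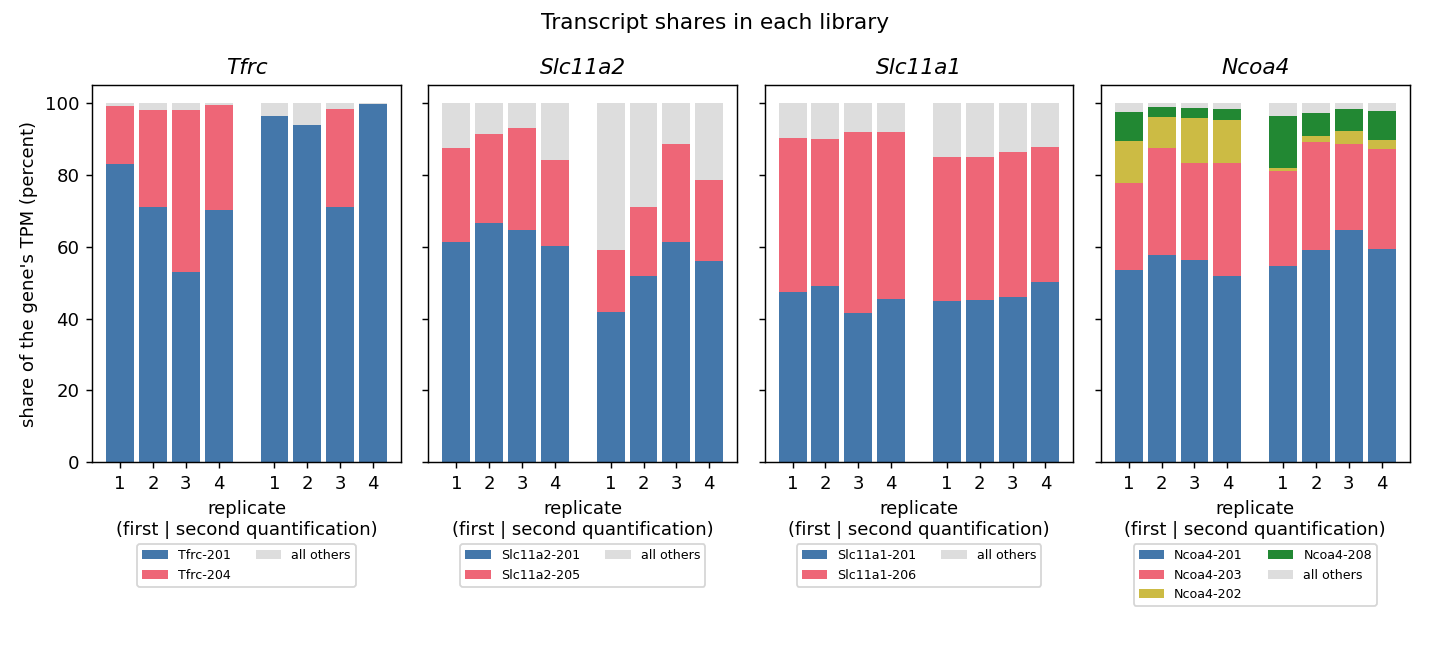
Share of each gene's TPM (percent) held by its main transcripts in replicates 1 to 4, in the first and the second quantification. Tfrc-204 is largest in replicate 3 in both, Slc11a2-201 exceeds Slc11a2-205 in every library, and Ncoa4-208 takes its largest share in replicate 1.

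Hmox1 (ENSMUSG00000005413.8, chr8:75093621-75100589, + strand), which opens the haem ring and frees its iron, had 562, 387, 388 and 334 TPM. Replicate 1 was the highest, and the other 3 libraries lay between 334 and 388 TPM. The edgeR adjusted p for variability was 0.93. Nearly all of the gene, 99.9% ± 0.036, was the coding Hmox1-201.

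Slc40a1 (ENSMUSG00000025993.10, chr1:45908068-45926523, − strand), the iron exporter ferroportin, had 21.8, 25.1, 51.0 and 31.8 TPM. Replicate 3 was the highest, 2.34 times replicate 1, and the edgeR adjusted p for variability was 0.18 (0.13 to 1.00 over the alternatives). At gene level Slc40a1 was lower than Tfrc in 4 of 4 libraries, at 0.44, 0.52, 0.52 and 0.51 times its TPM. The Tfrc level includes the non-coding Tfrc-204, so the ratio is not one of coding RNA. The coding Slc40a1-201 had 21.1, 24.45, 49.9 and 31.2 TPM, beside 41.4, 34.5, 52.4 and 43.8 for the coding Tfrc-201. The mean log2 ratio of the 2 genes was −1.02 ± 0.12 (SD, n = 4; exact two-sided sign-flip p = 0.13), and both were highest in replicate 3.

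Of the iron regulatory proteins, Aco1 (ENSMUSG00000028405.9, chr4:40143081-40198338, + strand) encodes the cytosolic aconitase that binds IREs once it loses its iron-sulphur cluster. It had 14.3, 21.1, 24.5 and 24.7 TPM, lowest in replicate 1. Ireb2 (ENSMUSG00000032293.8, chr9:54863789-54912530, + strand), the family member that is degraded when iron is plentiful, had 16.9, 18.5, 17.6 and 15.1 TPM, a range of 1.23-fold. The log2 ratio of Ireb2 to Aco1 was −0.28 ± 0.41 (SD, n = 4), positive in 1 of 4 libraries, with p = 0.375 by the exact two-sided sign-flip test. With counts not divided by transcript length the ratio was 0.35, so which of the 2 had more RNA depended on the length correction and did not exceed the spread between libraries.

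The recorded split in the number of read files was tested across all genes, 2 libraries against 2. By edgeR's quasi-likelihood test 0 of 12667 genes (0%) and 0 of the 10 passed an adjusted p of 0.05, while 897 genes (7.08%) and 3 of the 10 (Slc40a1, Tfrc and Aco1) lay under an unadjusted p of 0.05. With DESeq2 103 genes (0.813%) and 0 of the 10 were called. Normalised counts of both libraries from 4 read files were above both from 6 for Slc40a1, Tfrc, Aco1 and Ncoa4 (4 of 10, beside 21.4% of all genes) and below both for Fth1 and Ireb2 (2 of 10, beside 17.4%). The log2 difference was 0.79 ± 0.23 (SE) for Slc40a1, from a mean of 49.7 CPM in the libraries from 6 read files to 85.6 CPM, and −0.44 ± 0.35 for Fth1. The adjusted p by edgeR was 0.64 and 0.83. Without replicate 3 the difference was 0.44 for Slc40a1 and 0.31 for Tfrc, against 0.58 for Tfrc with all libraries. For Ncoa4 it was 0.62, and ranged from 0.069 without replicate 1 to 1.46 without replicate 2. Without replicate 1 it was 0.27 for Aco1, against 0.45, and −0.059 for Hmox1, against −0.47, which was −0.81 without replicate 2. Replicate 1 was the lowest library for 2 of the 10 genes and replicate 3 the highest for 2, beside 29.2% and 28.2% of all genes.

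The wider iron pathway was read from 7 lists that hold 85 genes, the 10 included. Of these 65 reached 1 TPM in every library, 10 had no count in any library, and 66 passed the filter on low counts. Of the 66 edgeR called 0 variable, beside 2.61% of all genes, and 6 (Ncoa4, Slc40a1, Blvrb, Cp, Lcn2 and Trf) had an unadjusted p under 0.05, beside 910 of all 11679 genes tested. With the DESeq2 dispersion trend and size factors 1 of the 66 was called, Ncoa4, beside 347 of all genes. Without replicate 1 edgeR called 1 of the 66, Lcn2, beside 135 of all genes. The median ratio of highest to lowest library was 1.42, beside 1.43 for all genes, and 7 of 66 (10.6%) differed at least 2-fold, beside 17.7% of all genes.

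Storage and turnover had 7 of 8 genes detected. Pcbp2, an iron chaperone that can deliver iron to ferritin, had 411 ± 25.6 TPM, and Ftmt, the mitochondrial ferritin, had no count. Among uptake genes 10 of 16 were detected, led after Slc11a1 by Trf, which encodes transferrin, at 168 ± 46.8 TPM and by Lcn2, a siderophore-binding protein, at 78.3 ± 34.2 TPM. Lcn2 had 61.8, 127, 76.4 and 48.5 TPM, highest in replicate 2. Steap1, Steap2 and Scara5 had no count.

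Export and its control was the list with the fewest genes detected, 2 of 10. Beside Slc40a1 these cells had Cp, the plasma ferroxidase ceruloplasmin, at 108, 94.9, 190 and 81.1 TPM, highest in replicate 3 as Slc40a1 was, with an edgeR adjusted p of 0.55. Erfe was next at 0.10 ± 0.18 TPM. Hamp and Hamp2, which encode hepcidins, and Hephl1, Hfe2 (hemojuvelin), Bmp6 and Tmprss6 had no count in any library. A count of 0 allows up to 3 counts, or 0.072 to 0.13 CPM of the unadjusted totals of these libraries, for counting error only.

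Haem uptake and breakdown had 10 of 13 genes detected. Por, the reductase that supplies electrons to haem oxygenase, had 294 ± 75.7 TPM, and Hmox2, the second haem oxygenase, had 251 ± 32.6 TPM. Haem synthesis had 8 of 9 detected, among them Alas1 at 125 ± 14.7 and Fech at 21.99 ± 2.15 TPM, while the erythroid Alas2 had at most 0.24 TPM. Of the regulators 10 of 11 were detected, led by Nfe2l2 at 278 ± 62.7, Skp1a at 104 ± 15.2 and Keap1 at 52.9 ± 4.94 TPM. All 18 mitochondrial iron and iron-sulphur genes were detected, among them Iscu at 93.5 ± 9.66 and Nfu1 at 79.4 ± 19.7 TPM. The iron-sulphur list had a median ratio of highest to lowest library of 1.32.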

How the data were processed

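For each library the authors deposited gene and transcript tables (the first quantification, from transcriptome alignments) and a second transcript table made directly from the reads, on mm10 with GENCODE M21, per the deposited records. Programs are not given in the sources used here. The columns of the first carry the names that RSEM uses and those of the second the names that kallisto uses. The deposited expected counts are not normalised, and TPM as deposited corrects for length and sums to 1 total per library. The deposited transcript shares are in percent of the gene, and the deposited FPKM values were not used. The tables hold 81881 entries. Entries other than Ensembl genes held 0.079% to 0.29% of counts, all on 1 control, and were left out.

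Counts were rounded and tested in edgeR 4.0.16 (filterByExpr, TMM), with DESeq2 1.42.0 as an alternative. Quantifications were compared by limma 3.58.1 on log2(TPM + 0.1), summed over transcripts in both. The common coefficient of variation was 22.4%. Copies and other genes with a similar stretch were found by BLAST 2.17.0. Tests were also run on simulated data. The simulated counts were drawn with the dispersion trend fitted here, so the run cannot show how the tests handle other variation. P-values were adjusted over all genes by Benjamini-Hochberg. All 10 genes are named, with the 3 most abundant genes and those without counts of each list, any other ferritin locus at a mean of 1 TPM and transcripts at 10% of their gene; a few that this rule names are not reported here. Genes and lists were chosen with earlier results of these data known. Of the listed symbols, Tf, Hjv, Skp1 and Ciao3 were found as Trf, Hfe2, Skp1a and Narfl through RefSeq synonyms, and Ahsp was not matched. Alternatives are in the closing section; centring of the quantifications was added after seeing the data.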

Additional observations from a re-analysis of the deposited data

Results flagged for a closer look

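In each of 31 sets of 4 library values the gap of the most extreme library to the next was compared with the whole range, and 5 sets had a library far from the others. Chance alone gives this in about 1 of 20 sets, and the sets are not independent. Ncoa4 was one, through replicate 1 at 101 TPM. The gene-level log2 ratio of Slc40a1 to Tfrc, with the non-coding Tfrc-204 counted in Tfrc, was another. It was −1.19 in replicate 1 and −0.95 to −0.97 in the others. Transcript shares gave the rest: Ncoa4-202 at 8.45% of its gene in replicate 2, Ncoa4-208 at 7.81% in replicate 1, and Fth1-201 at 99.26% in replicate 1, where the other libraries had 99.1% of the gene in that transcript.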

How the results depend on the processing

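No paired analysis was possible because all libraries belong to 1 group, so replicate numbers pair no groups; quantifications and gene ratios were compared within each library. Of 195 main values recomputed under alternatives, 169 were taken as unchanged. Ratios among these kept their direction, and levels and shares moved by less than 1 SD. Counts of genes among these could differ in size, as with 204 variable genes without replicate 3 against 305. For the values not among the 169 the cause was not tested unless fewer genes or libraries entered. The mean log2 ratio of Ireb2 to Aco1 turned to 0.35 with counts not divided by length. In the second quantification Fth1 had a mean of 42760.5 TPM, Ftl1 14105, Slc11a1 442, Hmox1 317 and Ireb2 13.7. Scaled over nuclear protein-coding genes alone, Ftl1 had 21306 TPM, Slc11a1 682 and Ireb2 19.2. Leading transcripts in the second quantification held 97.6% of Fth1, 99.1% of Ftl1, 95.8% of Slc40a1, 90.2% of Tfrc, 52.8% of Slc11a2, 99.8% of Hmox1 and 59.4% of Ncoa4.

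Variable genes numbered 135 to 219 with a replicate left out, the lowest without replicate 1, against 305. With the DESeq2 dispersion trend and size factors 1 of the 10 was called. For the split by read files DESeq2 called 103 genes, no filter on low counts 35, the second quantification 77, and leaving out a replicate 0 to 13 (13 without replicate 2), where the lone library of an arm is assumed to vary like the other arm. Left-out replicates turned the log2 difference of Ftl1 (−0.29 to 0.021), Slc11a1 (−0.43 to 0.085) and Slc11a2 (−0.15 to 0.14). Slc11a2 was also at −0.0098 with DESeq2 and with DESeq2 size factors. Between quantifications 2683 genes were called with no filter on low values, and 4864 genes and 7 of the 10 with no fold threshold. Centring turned Slc11a2 to 0.19 and Ncoa4 to 0.011. Levels of the rarer genes rest on 910 to 2839 counts per library for Aco1 and Ireb2.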
